A study of Mus musculus with 26 samples.

Results

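The 68 genes described here are nuclear genes for subunits of the mitochondrial respiratory chain and ATP synthase, with a few others that share their symbols. They are all genes of the RNA-seq table whose symbols begin with Nduf, Uqcr or Atp5, or with Cox4 to Cox8, together with the Sdh subunit genes and Cycs. The table holds 15648 genes in all. By role, 26 members are subunits of complex I (NADH dehydrogenase), 3 of complex II (succinate dehydrogenase), 5 of complex III (the cytochrome bc1 complex), 17 of complex IV (cytochrome c oxidase) and 11 of complex V (ATP synthase). Cycs is cytochrome c itself. The symbol rule also takes 4 assembly factors, which are not part of the finished complexes, and Cox4nb, now named Emc8, which belongs to a complex of the endoplasmic reticulum membrane. Further subunits were not analysed here, Sdhb, Cox4i1, Cox6a1, several core subunits of complex I and the catalytic subunits of complex V among them, so every sum, median and highest value of a complex below covers only the members.

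The study compared mouse embryonic stem cells (ESC), epiblast-derived stem cells (EpiSC) and ESC without Nanog by promoter capture Hi-C (PCHi-C), which lists the DNA fragments that promoters touch, and by RNA-seq. WT ESC were E14Tg2a, of the 129P2/OlaHsd strain. Nanog-/- ESC were the RCNβH-B(t) line, derived from E14Tg2a and kept under hygromycin while they were expanded. Both ESC lines grew on gelatin with serum and LIF, whereas the embryo-derived 129S2 EpiSC grew on fibronectin in N2B27 with Activin A and bFGF, so that line, strain background, medium and cell state change together between EpiSC and WT ESC and cannot be told apart. The labels give C57BL/6 as the strain of every sample, which differs from the growth protocol. The RNA-seq table holds 1 median RPKM (reads per kilobase of gene, scaled to library size) per gene and group, over 3 WT ESC, 3 Nanog-/- ESC and 4 EpiSC samples. Each PCHi-C list combines the replicates of a cell type. No replicate error can therefore be given for any value, no difference was tested, and the read depth behind the RPKM values is unknown.

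In the respiratory chain, electrons from NADH enter at complex I and electrons from succinate at complex II, pass through ubiquinone to complex III, and are carried by cytochrome c to complex IV, where oxygen is reduced. Complexes I, III and IV move protons across the inner mitochondrial membrane, and complex V uses their return to make ATP. Mouse EpiSC have been described as drawing more on glycolysis than naive ESC do, and several subunits of complex IV exist as isoforms that differ between tissues.

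Nanog, the gene removed in the knockout line, stood at 418 RPKM in WT ESC, 22.3 in Nanog-/- ESC and, scaled as described next, 191 in EpiSC. Since the low Nanog value was among the grounds for assigning that column, it is no check of the label, and the labels do not say which stretch of the gene was removed. The EpiSC values were divided by 1.885 (0.91 on the log2 scale), the median ratio of EpiSC to WT ESC over the 9077 genes at 1 RPKM or more in both. Without that step the median difference over all genes was 0.85 on the log2 scale in place of 0.03, and every EpiSC value below is scaled unless stated. Differences are of log2(RPKM + 1), and a gene counted as measured at 1 RPKM or more in at least 1 group as deposited, before scaling, which 11066 genes and 66 members did. Cox6a2 and Cox8b, the heart and muscle isoforms, were the members below it in all 3 groups, at no more than 0.2 RPKM.

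The markers of naive ESC other than Nanog were far lower in EpiSC than in WT ESC. Most of those of EpiSC were higher there, while for Dnmt3b and Otx2 this depended on the scaling. The naive list had 6 of 8 genes in the table and summed to 1112 RPKM in WT ESC, 483 in Nanog-/- ESC and 201 in EpiSC. Nanog made up most of the EpiSC sum, and the other 5 genes summed to 694, 461 and 9.43 RPKM. Esrrb, from that list, stood at 210, 147 and 0.411 RPKM in the same order. The 4 markers that both states express summed to 1877, 1836 and 1096 RPKM, led by Pou5f1, and in EpiSC to 2067 as deposited, so the direction depends on the scaling. The 6 EpiSC markers summed to 310, 263 and 432 RPKM, with Fgf5 at 4.74, 1.11 and 116 RPKM. Each of the 6 was above WT ESC in EpiSC without scaling. Sox3, Zic2 and Pou3f1 were above it after scaling too, by 2.72, 0.94 and 0.87 on the log2 scale. Otx2 was nearly level between scaled EpiSC and WT ESC (39.5, 49.7 and 41.4) and 0.97 above WT ESC without scaling. Dnmt3b, at 210, 183 and 144 RPKM, was lower in EpiSC after scaling and higher without it (0.36 on the log2 scale). Markers of other cells also differed. The 3 fibroblast collagen genes in the table, of 5 listed, summed to 23.4 RPKM in WT ESC, 26.4 in Nanog-/- ESC and 176 in EpiSC, led in each by Col1a1, and none was at 0. The 4 mesendoderm markers summed to 7.38, 7.02 and 301 RPKM, with T the highest in EpiSC. For neuroectoderm, 2 of 3 listed markers were in the table and summed to 13.3, 14.3 and 145 RPKM, nearly all of it Nes. The 5 primitive endoderm markers summed to 3.66, 66.9 and 17.9 RPKM, led by Gata4 in Nanog-/- ESC. In such bulk samples fewer cells of a type and less RNA per cell cannot be told apart, and what these other markers contributed to the members' values was not tested.

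Promoter sequences were compared as a feature that the symbol rule did not use. RefSeq promoters of build GRCm38.p6, which run from 250 bases before a gene's start to 50 after it, matched 57 of the 68 members. Each was searched on both strands for 4 motifs of factors known to regulate nuclear genes of mitochondria: NRF1 (GCGCANGCG), ETS factors such as GABPA (CCGGAAG), YY1 (AAGATGGCG) and oestrogen-related receptors, ERR (AAGGTCA). Matches of different motifs shared a base in 0 member promoters. NRF1 letters were found in 17 member promoters, or 29.8% (Wilson 95% interval 19.5 to 42.7), against 6.47% of all 27025 promoters and 19% of the 1477 promoters of genes at a mean of 50 RPKM or more over the 3 groups. The members' interval lay above the share of all promoters and overlapped that of the highly expressed genes (17.1 to 21.1). YY1 letters were in 6 member promoters, 10.5% (4.91 to 21.1), against 1.49% and 4.87%. ERR letters were in 7, 12.3% (6.08 to 23.2), against 4.66% and 2.57%. ETS letters were in 11, 19.3% (11.1 to 31.3), against 9.12% and 22.7%, so for this motif the members stood near other highly expressed genes. At least 1 of the 4 motifs was present in 30 member promoters, 52.6%, against 19.5% and 41.3%.

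The matches were spread unevenly over the complexes. NRF1 letters occurred in 6 of 11 promoters of complex V and in 0 of 12 of complex IV, where the only matches to any motif were ETS letters in Cox8a and Cox6b1. YY1 letters occurred in 5 of 24 promoters of complex I. The median member promoter had 19 CpG, against 7 in all promoters and 23 in those of highly expressed genes. A match states only that these letters occur in the window.

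**Figure D1:**
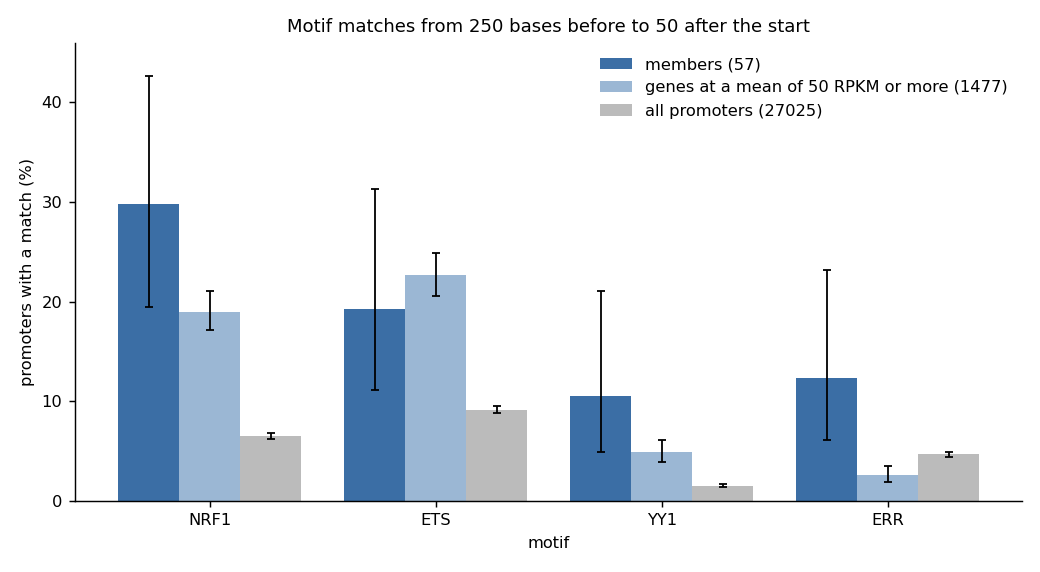
Share of promoters (%) with a match to each of 4 motifs, for 57 members, for 1477 genes at a mean of 50 RPKM or more and for all 27025 promoters; the window runs from 250 bases before the gene start to 50 after it, and error bars are Wilson 95% intervals. NRF1 letters were found in 29.8% of member promoters, 19% of those of highly expressed genes and 6.47% of all.

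Printed here are 7 promoters, 5′ to 3′ along the gene's strand, with motif matches in capitals. All 7 lie on the minus strand. Ndufb4 (chr16:37654319-37654618) and Atp5l (chr9:44920693-44920992) are shown because they had some of the largest falls in EpiSC, and Cox6b2 (chr7:4753045-4753344) because it had the largest rise there and no match. Sdhd (chr9:50603800-50604099) and Atp5k (chr5:108434350-108434649) are shown, like Atp5l, for carrying 3 kinds of motif. Ndufs6 (chr13:73328433-73328732) shows NRF1 and YY1 matches in the same window, and Cycs (chr6:50566520-50566819) is the electron carrier between complexes III and IV.
Ndufb4: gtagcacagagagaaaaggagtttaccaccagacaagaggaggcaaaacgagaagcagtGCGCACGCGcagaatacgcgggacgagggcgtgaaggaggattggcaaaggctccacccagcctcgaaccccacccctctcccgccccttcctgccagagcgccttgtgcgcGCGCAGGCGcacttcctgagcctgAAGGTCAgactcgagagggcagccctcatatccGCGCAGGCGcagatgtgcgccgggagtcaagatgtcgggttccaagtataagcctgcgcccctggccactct
Ndufs6: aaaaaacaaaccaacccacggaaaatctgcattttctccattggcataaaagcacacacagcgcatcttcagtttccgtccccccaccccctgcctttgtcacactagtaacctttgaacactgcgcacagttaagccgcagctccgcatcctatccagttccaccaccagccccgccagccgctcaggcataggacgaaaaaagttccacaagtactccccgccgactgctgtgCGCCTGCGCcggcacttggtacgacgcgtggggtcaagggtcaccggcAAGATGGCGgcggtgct
Sdhd: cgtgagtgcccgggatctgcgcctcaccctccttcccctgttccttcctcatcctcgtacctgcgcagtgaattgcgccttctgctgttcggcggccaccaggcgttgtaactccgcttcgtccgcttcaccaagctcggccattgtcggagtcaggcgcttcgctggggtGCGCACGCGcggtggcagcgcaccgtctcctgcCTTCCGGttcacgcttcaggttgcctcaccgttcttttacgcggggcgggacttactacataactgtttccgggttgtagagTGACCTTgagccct
Cycs: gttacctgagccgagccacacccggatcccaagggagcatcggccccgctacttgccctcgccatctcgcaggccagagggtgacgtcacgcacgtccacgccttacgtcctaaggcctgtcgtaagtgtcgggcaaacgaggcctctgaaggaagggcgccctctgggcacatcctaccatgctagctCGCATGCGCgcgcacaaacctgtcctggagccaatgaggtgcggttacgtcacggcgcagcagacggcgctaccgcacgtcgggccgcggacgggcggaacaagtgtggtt
Cox6b2: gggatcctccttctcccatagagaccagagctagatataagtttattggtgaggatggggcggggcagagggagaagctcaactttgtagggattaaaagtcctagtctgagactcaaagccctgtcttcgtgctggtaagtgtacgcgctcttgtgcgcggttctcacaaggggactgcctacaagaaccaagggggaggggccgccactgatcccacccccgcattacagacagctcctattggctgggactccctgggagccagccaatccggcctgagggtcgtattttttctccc
Atp5k: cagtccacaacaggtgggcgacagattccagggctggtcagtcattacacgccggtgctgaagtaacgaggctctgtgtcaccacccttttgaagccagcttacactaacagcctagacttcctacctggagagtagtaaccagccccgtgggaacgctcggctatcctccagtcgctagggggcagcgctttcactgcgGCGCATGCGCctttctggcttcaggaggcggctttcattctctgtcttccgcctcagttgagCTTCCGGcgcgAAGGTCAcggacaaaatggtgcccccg
Atp5l: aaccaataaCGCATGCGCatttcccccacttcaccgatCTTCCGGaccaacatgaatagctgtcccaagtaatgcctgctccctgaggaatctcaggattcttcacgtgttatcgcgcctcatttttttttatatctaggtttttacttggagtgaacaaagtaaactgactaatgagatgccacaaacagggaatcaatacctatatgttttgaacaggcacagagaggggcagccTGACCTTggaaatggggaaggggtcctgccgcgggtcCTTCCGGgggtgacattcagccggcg
The Ndufb4 promoter held 3 NRF1 matches and 1 ERR match, and the Cox6b2 promoter held 0 of any motif.

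Across the members, EpiSC stood below WT ESC by a median of -0.38 on the log2 scale (quartiles -0.93 and -0.14), against 0.03 over all measured genes, but this sign depends on the scaling: the members' median was 0.52 without it and 0.06 with column sums made equal. Of the 66 measured members, 1 stood 1.5-fold or more above WT ESC, where 25.8% of all 11066 genes did, and 27 stood 1.5-fold or more below, where 23.5% did. These counts depended on the scaling as well, and were 28 above and 11 below without it, where 62.4% and 11.2% of genes were, and 3 and 15 with column sums made equal, where 42.6% and 14.9% were. At 2-fold, 1 member was above and 16 were below, where 14.8% and 13.7% of genes were. The 27 and the 16 include Cox7b2 and Cox8c, which counted as measured through ESC columns alone. With a limit of 5 RPKM in at least 1 group, 24 of 63 members were 1.5-fold or more below, where 22.1% of genes at that level were. Highly expressed genes as a whole also stood lower in EpiSC after scaling. Of the 2014 genes at a mean of 50 RPKM or more, 8.04% were 1.5-fold or more above WT ESC and 37.1% below, with a median of -0.38. Among the 51 members at that level, 1 was above and 17 were below (33.3%), with a median of -0.33. Their median and share below thus lay near those of the 2014 genes, while their share above was lower. Both sets passed the same limit but were not matched in level. The median WT ESC value was 166.5 RPKM for these members and 98.33 for these genes. The members' own differences varied by complex and by isoform. Under the 4 scalings tried, 17 members were below WT ESC in every one, 10 were above in every one, and 39 changed direction. After division by 1.885, the largest divisor of the 4, 10 of the 66 measured members were above WT ESC. So were 5676 of all 11066 measured genes and 545 of the 2014 highly expressed genes. Genes below in every scaling were counted among the members only, so the 17 have no share over all genes beside them.

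Nanog-/- ESC differed less. The members' median was -0.01 on the log2 scale (quartiles -0.17 and 0.11), against 0.07 over all measured genes. Of the 66 measured members, 0 stood 1.5-fold or more above WT ESC, where 8.63% of genes did, and 2 stood 1.5-fold or more below, where 6.2% did. These 2 were Cox6b2 and Ndufa4l2, both isoforms of complex IV subunits, and the count was 4 with a pseudocount of 0.1. With the Nanog-/- column rescaled in 2 other ways, 35 members were below WT ESC in every case, 25 were above, and 6 (Ndufs7, Uqcrc1, Uqcrc2, Uqcrh, Cox6b1 and Cox4nb) changed direction. As deposited, 31 members were above and 35 below. Of all 11066 measured genes 6448 were above and 4610 below, and of the 2014 highly expressed genes 1196 and 818. Directions under every rescaling were counted for the members only. Both comparisons use the same WT ESC values, so their differences are not independent of each other, and they are given side by side only.

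**Figure D2:**
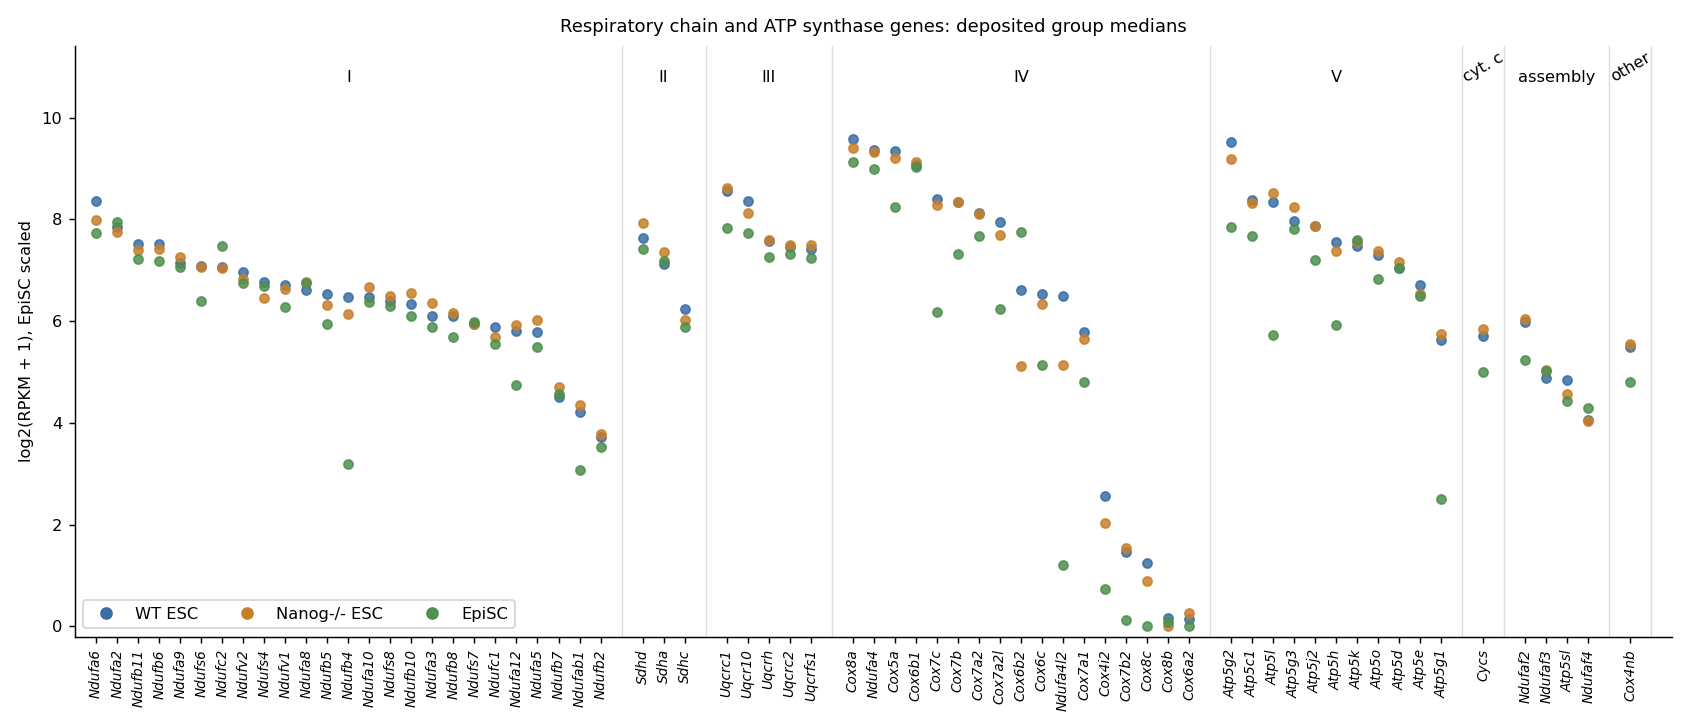
Level of 67 of the 68 members as log2(RPKM + 1) in WT ESC, Nanog-/- ESC and EpiSC (scaled), 1 point per deposited group median, grouped by complex and ordered by WT ESC level. In EpiSC 38 of the 66 measured members lay within 1.5-fold of WT ESC after scaling. So did 5611 of all 11066 measured genes and 1105 of the 2014 genes at a mean of 50 RPKM or more. The widest gaps were those of Ndufa4l2, Ndufb4, Atp5g1 and Atp5l, which were lower in EpiSC under each of the 4 scalings.

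Complex I is built from core subunits that hold the flavin and the iron-sulphur clusters and from accessory subunits around them. Its 26 members summed to 2772 RPKM in WT ESC, 2640 in Nanog-/- ESC and 2290 in EpiSC (4318 as deposited). The median EpiSC difference was -0.27 on the log2 scale. After scaling, 0 members were 1.5-fold or more above WT ESC and 6 below (23.1%), where 25.8% and 23.5% of all genes were. Without scaling the median became 0.64, with 16 above (61.5%) and 1 below (3.85%), where 62.4% and 11.2% were. The direction of the complex thus depends on the scaling. The most abundant was Ndufa6, an accessory subunit that binds the acyl carrier protein, at 328 RPKM in WT ESC, 253 in Nanog-/- ESC and 212 in EpiSC. Its difference was -0.37 in Nanog-/- ESC and -0.63 in EpiSC, the latter becoming 0.28 without scaling. The steepest fall of the complex was in Ndufb4, an accessory subunit of the membrane arm, whose values were 87.8, 69.2 and 8.15 RPKM in the same order, a difference of -3.28 in EpiSC that stayed negative under every scaling. Its promoter carried the 3 NRF1 matches, and 41.3% of its 50-base stretches also occur elsewhere in the genome. Ndufab1, the acyl carrier protein, and Ndufa12, an accessory subunit of the matrix arm, were also below WT ESC in EpiSC under every scaling, by -1.15 and -1.06.

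Other accessory subunits of complex I stood above WT ESC in EpiSC. Ndufc2, a membrane arm subunit, had 132 RPKM in WT ESC, 130 in Nanog-/- ESC and 176 in EpiSC, a difference of 0.41 that was positive under every scaling. Ndufa8, which faces the intermembrane space, had 96.9, 107 and 106 RPKM, a difference of 0.13 in EpiSC that was also positive under every scaling. Both differences lay inside the 1.5-fold limit after scaling and past it without scaling, at 1.32 and 1.04, and that of Ndufc2 was past it also with column sums made equal (0.86). In Nanog-/- ESC the differences of complex I ran only from -0.37 to 0.24. The highest there was that of Ndufa5, a matrix arm subunit, at 54.1 RPKM in WT ESC and 64.2 in Nanog-/- ESC, followed by Ndufa3, at 68 and 80.5, and Ndufb10, at 80.2 and 92.6, which belong to the membrane arm. Their EpiSC values were 44.1, 58.2 and 67.6 RPKM, below WT ESC after scaling and above it without.

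Complex II links the citric acid cycle to the chain. Sdha, the flavoprotein that oxidises succinate, stood at 138 RPKM in WT ESC, 163 in Nanog-/- ESC and 143 in EpiSC. Sdhd, a membrane anchor, stood at 198, 243 and 170 RPKM, and its 0.29 in Nanog-/- ESC was the largest rise of any member there, still well inside 1.5-fold. Sdhc, the other anchor, went the other way in Nanog-/- ESC, with 74.2, 64.3 and 58.1 RPKM. In EpiSC none of the 3 passed 1.5-fold after scaling, and the signs of Sdhc (-0.35) and Sdhd (-0.22) turned positive without scaling, while Sdha (0.05) was positive under every scaling. Without scaling 2 of the 3, Sdha (0.96) and Sdhd (0.69), were 1.5-fold or more above WT ESC, where 62.4% of all genes were.

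Complex III passes electrons from ubiquinone to cytochrome c. Uqcrc1, a core protein and the most abundant of the 5, had 375 RPKM in WT ESC, 392 in Nanog-/- ESC and 228 in EpiSC, a difference of -0.72 in EpiSC that became 0.19 without scaling. Over the complex the EpiSC median was -0.33, with 0 above and 2 below by 1.5-fold (40%). Of all genes 25.8% were above and 23.5% below, and of highly expressed genes 37.1% were below. Without scaling the median turned to 0.58 with 2 above (40%) and 0 below, where 62.4% and 11.2% of all genes were. The Nanog-/- median was 0.05, or -0.02 when rescaled by the median ratio. Cyc1, the cytochrome c1 of the same complex, falls outside the symbol rule and was taken from a list of related genes. It had 413, 483 and 264 RPKM, a difference of -0.64 in EpiSC that became 0.27 without scaling. Cycs, which carries electrons on to complex IV, stood at 50.9 RPKM in WT ESC, 56.7 in Nanog-/- ESC and 30.9 in EpiSC, and its -0.70 became 0.19 without scaling.

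Complex IV had the lowest EpiSC median of the 5 complexes under each scaling. Its members summed to 4124 RPKM in WT ESC, 3769 in Nanog-/- ESC and 2686 in EpiSC, a fall in the sum that turned into a rise as deposited (5064 RPKM). The median EpiSC difference over its 15 measured members was -1.09, with 1 member 1.5-fold or more above WT ESC and 10 below (66.7%), where 23.5% of all genes and 37.1% of highly expressed genes were below. Without scaling the median kept its sign (-0.18), with 2 above and 6 below (40%), where 11.2% and 12.1% were below. Among the 12 members that reached 5 RPKM in some group the median was -1.01 with 7 below (58.3%) and without scaling -0.11 with 3 below (25%), where 22.1% and 8.97% of all genes at that level were. The lowest members thus carried part of these counts, while the sign of the median did not rest on them. In Nanog-/- ESC the median was -0.15, with 0 above and 2 below. The most abundant member of the whole set was Cox8a, the widely expressed form of subunit 8, at 759 RPKM in WT ESC, 677 in Nanog-/- ESC and 561 in EpiSC, where its -0.43 became 0.48 without scaling.

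The isoforms of complex IV subunits differed from each other. Cox6b1, the widely expressed form of a subunit on the intermembrane space side, was nearly level after scaling at 537 RPKM in WT ESC, 555 in Nanog-/- ESC and 524 in EpiSC, and in EpiSC 0.88 above WT ESC on the log2 scale without scaling. Cox6b2, its testis isoform, had 97 RPKM in WT ESC, 33.5 in Nanog-/- ESC and 215 in EpiSC. That was the lowest difference of all members in Nanog-/- ESC (-1.51) and the highest in EpiSC (1.14), and neither sign depended on the scaling. None of its 50-base stretches occurs elsewhere in the genome. Ndufa4, a complex IV subunit once assigned to complex I, had 657, 640 and 509 RPKM, and its -0.37 in EpiSC became 0.55 without scaling. Ndufa4l2, its paralogue and in other cells a gene induced by low oxygen, had 89.4 RPKM in WT ESC, 34.2 in Nanog-/- ESC and 1.3 in EpiSC. Its differences of -1.36 and -5.29 were negative under every scaling, and no 50-base stretch of it lies elsewhere either.

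Of the other tissue isoforms most were low. Cox4i2, Cox7b2 and Cox8c were below 5 RPKM in all 3 groups, and Cox7b2 and Cox8c counted as measured through ESC columns alone, so their lower EpiSC values are no result of their own. Cox4i2, the lung isoform of subunit 4, had 4.92 RPKM in WT ESC, 3.1 in Nanog-/- ESC and 0.656 in EpiSC, with differences of -0.53 and -1.84. Cox7b2, a testis isoform, had 1.74, 1.9 and 0.0933 RPKM, beside 324, 322 and 160 for its common form Cox7b. Cox8c, the testis form of subunit 8, had 1.38 and 0.865 RPKM in the ESC lines and was listed at 0 in EpiSC. Cox7a1, the heart and muscle form of subunit 7a, was not low, with 54.5, 49 and 26.8 RPKM, and Cox7a2, the common form, had 278, 274 and 204. Cox7a2l, a related protein that joins complexes III and IV into larger assemblies, had 247, 205 and 74.8 RPKM. All of these but Cox7a2, which was 0.46 above WT ESC without scaling, were below WT ESC in EpiSC under every scaling. Among subunits without a second isoform in the set, Cox7c had 335 RPKM in WT ESC, 308 in Nanog-/- ESC and 71.1 in EpiSC, a difference of -2.22 that was negative under every scaling.

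Complex V showed a similar split inside a family of near-equal proteins. Atp5g1, Atp5g2 and Atp5g3 encode the same mature c subunit of the membrane ring, each with its own import sequence. Atp5g2, the most abundant of complex V, had 729 RPKM in WT ESC, 584 in Nanog-/- ESC and 229 in EpiSC. Atp5g1 had 48.3, 52.8 and 4.64 RPKM, and its EpiSC difference of -3.13 was negative under every scaling, as was that of Atp5g2 (-1.66). Atp5g3 kept closer to its WT ESC level, with 248, 304 and 222 RPKM, differences of 0.29 in Nanog-/- ESC and -0.16 in EpiSC, the latter turning positive without scaling (0.75). By these values Atp5g2 was the most abundant of the 3 in WT ESC, whereas Atp5g2 and Atp5g3 were about equal in EpiSC. Of their 50-base stretches, 28.1% in Atp5g1, 37.2% in Atp5g2 and 0% in Atp5g3 occur elsewhere in the genome. All genes with a share of 10% to under 50% had an EpiSC median of -0.45. The lower values of Atp5g1 and Atp5g2 are therefore uncertain, and what the copies contributed to the split was not tested.

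Small subunits of the membrane part of complex V also diverged. Atp5k, subunit e, had 177 RPKM in WT ESC, 188 in Nanog-/- ESC and 192 in EpiSC, a difference of 0.12 in EpiSC that was positive under every scaling and 1.04 without scaling. Atp5l, subunit g, which sits beside it, had 322, 363 and 51.6 RPKM, a difference of -2.62 that was negative under every scaling. Of the 50-base stretches of Atp5l 84% occur elsewhere in the genome, against 5.39% for Atp5k. In Atp5l 24.4% of the exon length also lies under exons of another gene. All genes with a share of 50% or more had an EpiSC median of -1.52, and of -0.73 without scaling, so the lower value of Atp5l is uncertain. Over the 11 members the EpiSC median was -0.68, with 0 above and 6 below by 1.5-fold (54.5%, beside 23.5% of all genes and 37.1% of highly expressed genes), and the Nanog-/- median was 0.08. In 5 of the 11, 10% or more of the 50-base stretches occur elsewhere in the genome. Of all genes with such a share 50.9% were below, and 62.8% of those at a mean of 50 RPKM or more. Without scaling the EpiSC median was 0.23 with 4 above and 4 below (36.4% each). Of all genes 62.4% and 11.2% were, and of highly expressed genes 46.1% and 12.1%. The complex as a whole thus had no direction that held under every scaling. Usmg5, a small ATP synthase protein outside the symbol rule, had 388, 451 and 176 RPKM, a difference of -1.14 in EpiSC that was negative under every scaling, with 12.8% of its 50-mers elsewhere in the genome.

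Of the 4 assembly factors, 3 lay within 1.5-fold of WT ESC in EpiSC after scaling. Ndufaf4, a complex I assembly factor, had 15.7 RPKM in WT ESC, 15.4 in Nanog-/- ESC and 18.5 in EpiSC. Ndufaf3, which acts with it, had 28.6, 31.8 and 31.4 RPKM. Their EpiSC differences of 0.22 and 0.13 were positive under every scaling. Over all 4 the EpiSC median was -0.13. The factor below by 1.5-fold after scaling was Ndufaf2, at 61.9, 65 and 36.4 RPKM (0.15 above WT ESC on the log2 scale without scaling). Without scaling the median of the 4 was 0.75, with 2 above (50%) and 0 below, where 62.4% and 11.2% of all genes were. Of 39 further assembly factors listed, 14 were in the table. Their EpiSC median was -0.07, with 1 above (7.14%) and 0 below, beside 25.8% and 23.5% of all genes. Without scaling their median was 0.73, with 10 above (71.4%) and 0 below, beside 62.4% and 11.2%.

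**Figure D3:**
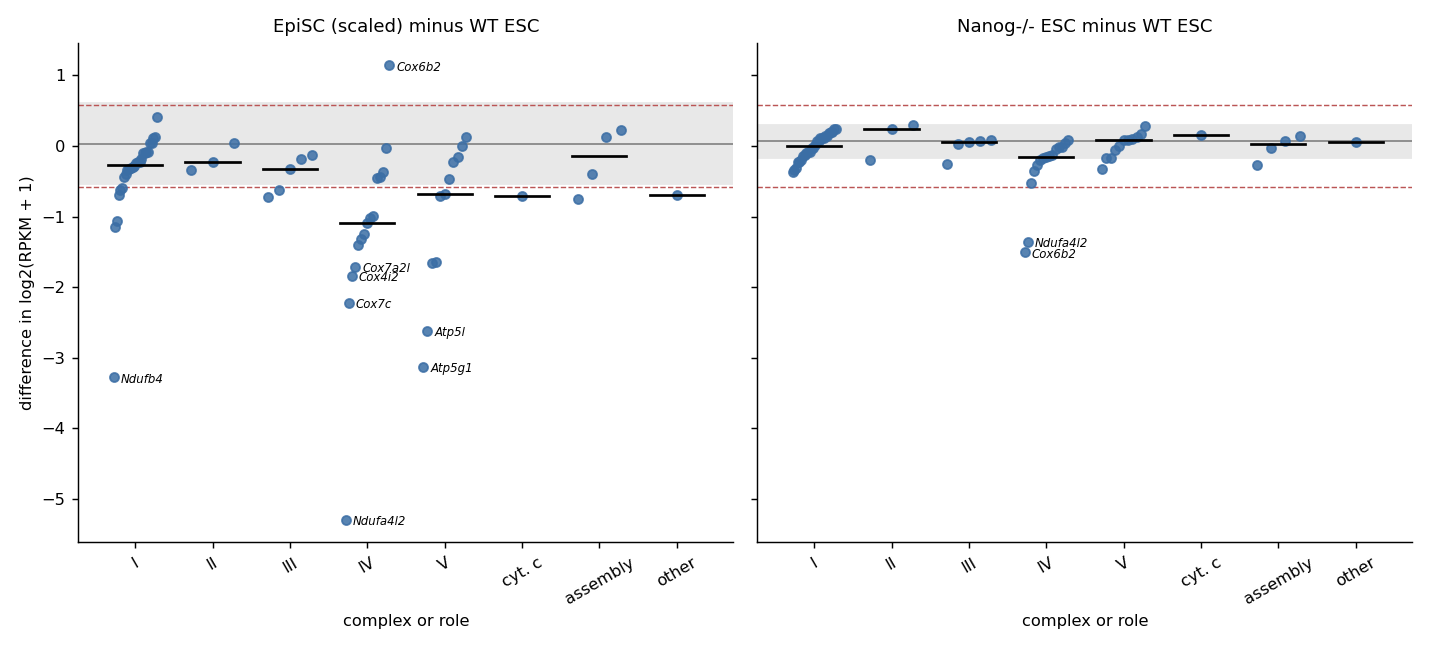
Difference in log2(RPKM + 1) from WT ESC for the 66 measured members, by complex or role, for EpiSC (left, scaled) and Nanog-/- ESC (right); black bars are medians, the grey line and band are the median and quartiles of all 11066 measured genes, and dashed lines mark 1.5-fold. Complex IV had the lowest EpiSC median of the 5 complexes (-1.09), negative also without scaling (-0.18), whereas the medians of the other 4 became positive without scaling.

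Many small mitochondrial genes have processed copies in the genome, and reads that fit both places can be lost or misplaced. For each gene the share of its transcript 50-mers found elsewhere in GRCm38 was counted. It was 10% or more in 15 members, 5 of complex I, 1 of complex III, 3 of complex IV, 5 of complex V and Cycs. Of all 9825 measured genes with a value, 837 had such a share. At a mean of 50 RPKM or more it was found in 11 of 51 members and in 419 of 1857 genes. At that level the members thus stood near other highly expressed genes. Atp5l had the highest share, 84%, followed by Cox7a2l (53.2%) and Atp5h (49%), a peripheral stalk subunit of complex V. Several of the lower EpiSC values are therefore uncertain, those of Ndufb4, Atp5g2 (37.2%), Cox7c (31.1%), Atp5g1 (28.1%), Ndufa12 (26.5%) and Ndufab1 (13.4%) among them.

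The copy share moved with the EpiSC difference over the 9825 measured genes that had a copy value, and the other 1241 are left out here. Of these genes, those with no such 50-mer had an EpiSC median of 0.11, those at 10% to under 50% had -0.45, and those at 50% or more had -1.52. In Nanog-/- ESC the same 3 medians were 0.08, 0.06 and 0.01. Among the members, the 15 at 10% or more had an EpiSC median of -1.15 with 10 below by 1.5-fold (66.7%), and the other 51 had -0.29 with 17 below (33.3%), where 50.9% and 20.2% of all genes with a copy value were. Of the members at a mean of 50 RPKM or more 54.5% and 27.5% were below in the same 2 classes, and of all such genes at that level 62.8% and 28.5%, while the median differences were -1.64 and -0.23 for these members and -0.84 and -0.26 for these genes. Of the 17 members below WT ESC under every scaling, 9 had 10% or more, against 6 of the other 49. The 17 include Cox7b2 and Cox8c, which counted as measured through ESC columns alone and have no 50-mer elsewhere. Across the 66 members, which come from the same libraries and are not independent, Spearman's rho between copy share and difference was -0.54 in EpiSC and -0.13 in Nanog-/- ESC. The samples were read as 50 or 100 bp single-end libraries, and which group had which length is not stated in the labels. What copies and read length contributed to the EpiSC differences was not tested.

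**Figure D4:**
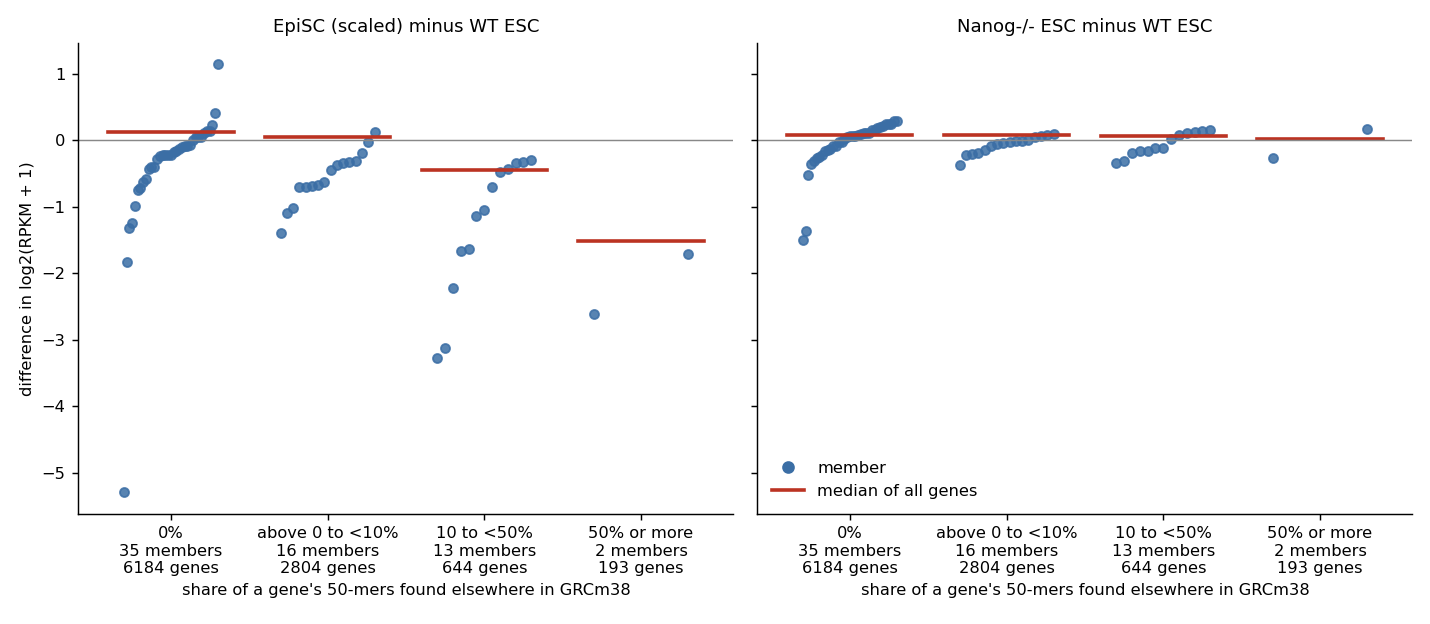
Difference in log2(RPKM + 1) from WT ESC for the 66 measured members (points) by the share of their 50-mers found elsewhere in GRCm38, for EpiSC (left, scaled) and Nanog-/- ESC (right), with the median of all genes of each class as a red bar. In EpiSC the all-gene median went from 0.11 to -1.52 with rising copy share (0.93 to -0.73 without scaling), and in Nanog-/- ESC from 0.08 to 0.01.

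Overlap with other genes touched fewer members. In 9 of the 68, 10% or more of the exon length lay under exons of another gene, mostly on the opposite strand, with the highest values in Atp5o (45%), Cox5a (41.7%) and Ndufb6 (39%). The labels do not state whether the libraries kept the strand, so the RPKM of these genes are uncertain. This overlap was computed for the members only, so no share over all genes can be set beside the 9.

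Genes of related lists were compared in the same way. Of 14 citric acid cycle genes listed, 10 were in the table, with a Nanog-/- median of 0.10. Their EpiSC median was -0.25, with 0 above and 1 below by 1.5-fold (10%), beside 25.8% and 23.5% of all genes. Without scaling the EpiSC median was 0.66 with 7 above (70%) and 0 below, beside 62.4% and 11.2% of all genes. Citrate synthase, Cs, was the gene below after scaling, at 249 RPKM in WT ESC, 220 in Nanog-/- ESC and 143 in EpiSC, and 0.12 above WT ESC on the log2 scale without scaling. Among regulators of mitochondrial genes, 10 of 13 listed were in the table. Their EpiSC median was -0.52, with 0 above and 5 below (50%), beside 25.8% and 23.5% of all genes. Without scaling their median was 0.35, with 4 above (40%) and 2 below (20%), beside 62.4% and 11.2%. The directions of both lists thus depend on the scaling. Nrf1, the factor behind the NRF1 motif, had 15.8, 16.3 and 11.9 RPKM, and Gabpa, an ETS factor, had 65.4, 60.2 and 37.7 RPKM; both were above WT ESC without scaling. Esrrb, an ERR factor and also a naive ESC marker, had a difference of -7.23, negative under every scaling. In Nanog-/- ESC 0 genes of these lists passed 1.5-fold in either direction. The 13 genes encoded in the mitochondrial genome were not analysed here.

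The PCHi-C lists named 67 of the 68 members on baited promoter fragments, and Cycs on none. The WT ESC list held 100492 pairs of HindIII fragments with 2177284 reads, the EpiSC list 87369 with 1651286, and the Nanog-/- list 74931 with 1438555, each pair with a CHiCAGO score of 5 or more. At least 1 contact was listed for 62 members in WT ESC (92.5%, Wilson 95% interval 83.7 to 96.8), for 54 in EpiSC (80.6%, 69.6 to 88.3) and for 48 in Nanog-/- ESC (71.6%, 59.9 to 81). Over all 18833 baited genes the shares were 89.8%, 85.1% and 75%, which lie inside the members' intervals, so the members were contacted about as often as other genes. These intervals cover counting error only.

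Members had 486 contacts in WT ESC, 308 in EpiSC and 298 in Nanog-/- ESC, which made up 0.484%, 0.353% and 0.398% of the lists. The median member had 4, 2 and 2, and the median baited gene 4, 3 and 2. Of the members, 44 had fewer contacts in EpiSC than in WT ESC (65.7%) and 14 had more (20.9%), where 52.9% and 33.4% of all baited genes did. In Nanog-/- ESC 48 had fewer (71.6%) and 12 more (17.9%), where 60.8% and 21.7% did. Both lists were shorter than that of WT ESC, and the share with fewer contacts was larger among the members than over all baited genes, a difference that was not tested. Of the WT ESC contacts, 34.4% (30.3 to 38.7) were also in the EpiSC list and 37.4% (33.3 to 41.8) in the Nanog-/- list, where all listed WT ESC contacts gave 39.6% and 41.8%. The median distance was 149 kb in WT ESC, 148 kb in EpiSC and 62.1 kb in Nanog-/- ESC, beside 139, 141 and 74.1 kb over all contacts.

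Member promoters often touched other promoters. In WT ESC 43.6% of their contacts joined another baited fragment, in EpiSC 37.7% and in Nanog-/- ESC 48%. The shares were 23.1%, 18.4% and 22% over all contacts but 38.5%, 32.1% and 38.3% for baited genes at a mean of 50 RPKM or more, so most of that excess was shared with other highly expressed genes. Uqcrh, the hinge protein of complex III, had 10 contacts in WT ESC, all with baited fragments, among them that of Atpaf1, an ATP synthase assembly factor (score 5.51), and 0 in the other lists. Its RNA lay within 1.5-fold in all 3 groups after scaling, at 190 RPKM in WT ESC, 193 in Nanog-/- ESC and 151 in EpiSC (285 as deposited).

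**Figure D5:**
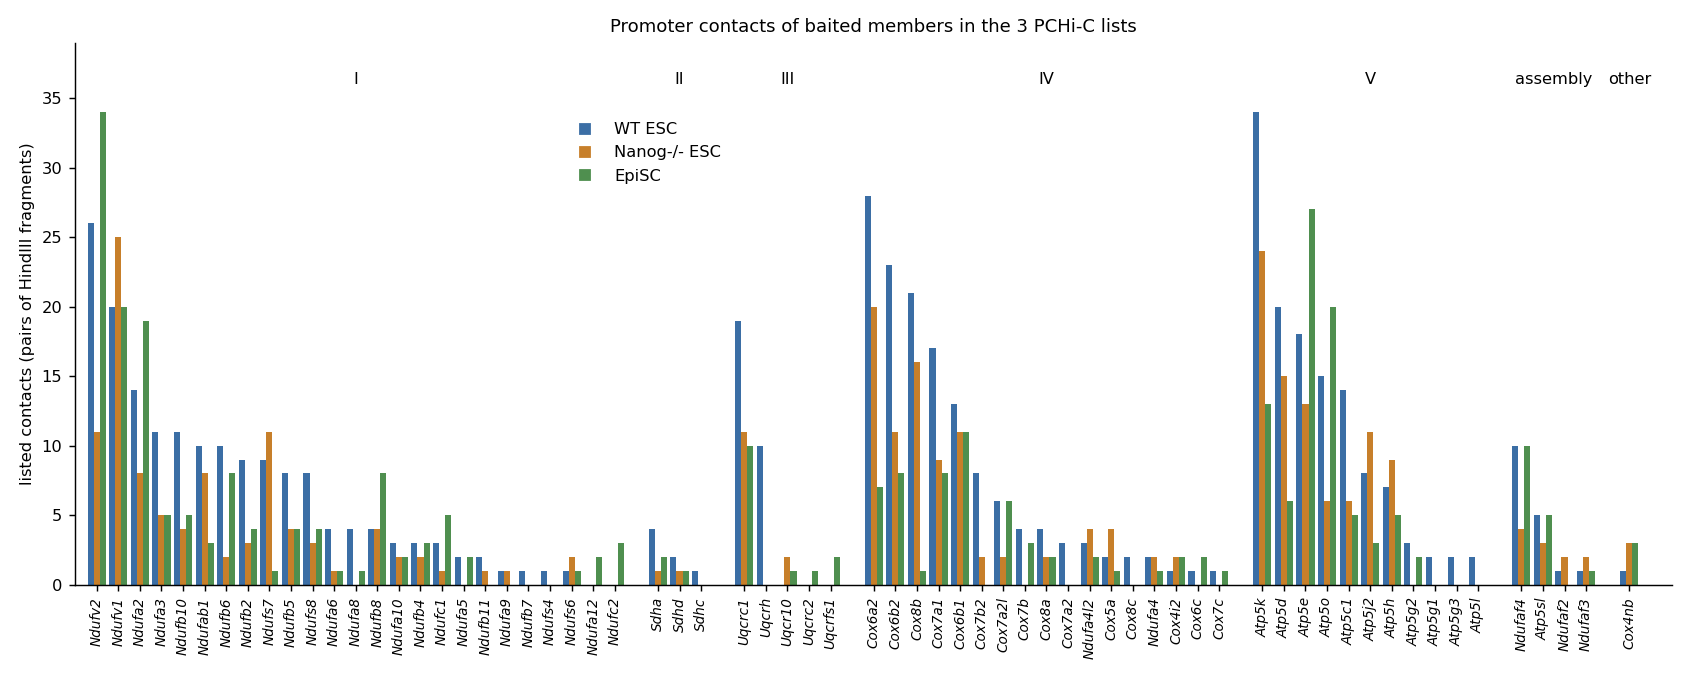
Number of listed contacts (pairs of HindIII fragments) of 66 of the 67 baited members in the WT ESC, Nanog-/- ESC and EpiSC lists, by complex. Ndufv2 and Atp5k had the most over the 3 lists, 71 each, the former most in EpiSC (34) and the latter most in WT ESC (34).

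The 5 members with the most contacts were led by Ndufv2 and Atp5k. Ndufv2, a core subunit with an iron-sulphur cluster, had 26 contacts in WT ESC, 11 in Nanog-/- ESC and 34 in EpiSC. Atp5k had 34, 24 and 13 contacts, so both had fewer in Nanog-/- ESC than in WT ESC, and in EpiSC the former had more and the latter fewer. Among its baited partners was Gak, with scores of 19.3, 13.4 and 11.8, while Cplx1 had 16.5 and 10.6 and was not listed in EpiSC. The RNA of Atp5k ran from 177 to 192 RPKM after scaling, and its EpiSC value was 363 RPKM as deposited.

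Ndufv1, the flavin-bearing core subunit, had 20 contacts in WT ESC, 25 in Nanog-/- ESC and 20 in EpiSC, and its contact with Cabp4 scored 17.9, 16.8 and 19.2. Its RNA stood at 104, 97.7 and 76.5 RPKM, and at 144 in EpiSC as deposited. Atp5e, the epsilon subunit of ATP synthase, had 18, 13 and 27 contacts, and touched Slmo2 with scores of 13.1, 20.4 and 8.37. Cox6a2 had 28, 20 and 7 contacts although its RNA was below 1 RPKM in all 3 groups. Cox8b, likewise below 1 RPKM, had 21, 16 and 1. Both thus had contacts with RNA below that limit.

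The highest score of any member contact in WT ESC was that of Cox6b2. It joined a fragment at chr7:4742170-4744762 (GRCm38), which overlaps an exon of Kmt5c, at a distance of 9.75 kb, and rested on 129 reads at a score of 34. The same contact scored 31.1 in Nanog-/- ESC and 12.8 in EpiSC. Over the lists Cox6b2 had 23, 11 and 8 contacts in the order WT ESC, Nanog-/- ESC and EpiSC, beside 97, 33.5 and 215 RPKM. In both other lists the top member contact joined Ndufb8, a membrane arm subunit of complex I, to Sec31b at a distance of 5.77 kb, scored 19.8 in WT ESC, 41.9 in Nanog-/- ESC and 26.9 in EpiSC.

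Few members lie near each other. The baited fragments of different members made 5 pairs under 1 Mb apart, of which 2 were joined in any list, and no pair farther apart was joined. Over all 280315 such pairs of baited fragments 11.8% were joined, and 15.4% of those of genes at a mean of 50 RPKM or more, but 5 pairs are too few to compare shares. Atp5d, the delta subunit of ATP synthase, touched Ndufs7, a core subunit of complex I, over 107.9 kb in WT ESC only, with 12 reads and a score of 6.88. Ndufs8, another core subunit, touched Ndufv1 over 100.5 kb in EpiSC only, with 12 reads and a score of 5.54. Both pairs are near neighbours, and beside the median list scores of 6.52 in WT ESC and 6.54 in EpiSC the first score lay just above the middle of its list and the second below it. Cox4nb, which is not a mitochondrial gene, had a contact with chromosome 6 from its own place on chromosome 8 in all 3 lists, scored 22.7 in WT ESC, 32 in Nanog-/- ESC and 9.16 in EpiSC on only 5, 6 and 3 reads.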

How the data were processed

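The labels list 26 samples. Of these, 10 RNA-seq and 12 PCHi-C samples lie behind the values used here, and 4 ChIP-seq samples were not used here. The PCHi-C samples, titled by lane, are 5 of WT ESC, 5 of Nanog-/- ESC and 2 of EpiSC. The paper states 2 biological replicates per cell type for its PCHi-C calls. The authors deposited RPKM as 1 median per gene and group, made with Trim Galore, TopHat and DESeq2 per the submitters' processing notes (versions not stated; GRCm38/mm10). The column headed BT12 was taken as Nanog-/- ESC from the series' design, where it leaves 1 RNA-seq group to be matched, and from its Nanog value. Its 4 columns of the authors' comparisons (log2 fold changes and significance calls of EpiSC and Nanog-/- ESC against WT ESC) were not used. The authors deposited, for each pair of HindIII fragments, read counts and a CHiCAGO score, after mapping with HiCUP (Bowtie 1.1.0); no listed score was under 5.

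Computed here from these files were the EpiSC scaling, log2 differences with a pseudocount of 1 RPKM, 1.5-fold counts, pairs of fragments counted once, Wilson 95% intervals and motif matches in RefSeq promoters. Copies were counted as 50-mers of GENCODE protein-coding transcripts found outside the gene's own locus in GRCm38. Tools were Python 3.11.15, numpy 2.4.6, pandas 2.3.3, scipy 1.17.1, numba 0.67.0 and matplotlib 3.10.9, and the calculations were tested on simulated data. Repeated table lines of a gene were merged (15741 lines, 15648 genes, 2 without RPKM). Genes were named by size: per complex the highest WT ESC RPKM; per comparison the 6 largest rises and falls; isoform families, Sdh genes and Cycs; the 5 members with the most contacts, the top contact per list and contacts joining 2 members. Other genes named (Ndufa12, Ndufab1, Ndufaf2, Uqcrh, Cox4nb, Atp5h, Cs, Nrf1, Gabpa and those of the promoter and overlap paragraphs) were chosen after their values were seen. Members and lists were chosen with earlier results of these data known. Promoter entries were not found for, among others, Sdhc, Ndufa4l2, Cox8c, Cox6c, Ndufa2, Cox4i2, Atp5sl, Uqcrc2, Cox6a2 and Cox4nb. Some items, 1 member in the plots by gene among them, are not reported here.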

Additional observations from a re-analysis of the deposited data

How the results depend on the processing

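No paired analysis was possible because the RNA-seq table used here holds 1 median RPKM per gene and group, and for the same reason no replicate could be left out. Of 76 alternative values over 11 results, 56 kept their direction and stayed near the reported value. The EpiSC median of -0.38 became 0.52 without scaling and 0.064 with column sums made equal, which follows from the smaller divisors of 1 and 1.378 in place of 1.885. With the same 2 changes the count of members above WT ESC went from 1 to 28 and 3, and the count below from 27 to 11 and 15. It was 16 at 2-fold. Alternatives added after seeing the data gave 17 below without members at 10% or more copied 50-mers, and 17 with members at a mean of 50 RPKM or more only; both take fewer members. In Nanog-/- ESC the 2 members below became 4 with a pseudocount of 0.1 and 1 among members at a mean of 50 RPKM or more.

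With scores of 7 or more, the shares of members with a contact were 68.7% in WT ESC, 53.7% in EpiSC and 50.7% in Nanog-/- ESC, and with non-baited partners only they were 80.6%, 65.7% and 56.7%; both settings count fewer contacts. Of WT ESC contacts scored 7 or more, 46.7% were also in EpiSC and 52.4% in Nanog-/- ESC, and of those with non-baited partners 31.4% were in Nanog-/- ESC; the cause was not tested.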
